A study of Mus musculus with 2 samples.

Results

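In the DNase-seq maps of B6NCrl mouse facial prominences at embryonic day 11.5, 1395 strong peaks of accessible chromatin appeared in replicate 1 alone. The series held 2 libraries of 1 untreated group, labelled biological replicates 1 and 2. Each library came from healthy embryos of both sexes that had been pooled, and the labels gave separate biosamples but the same donor identifier for both. The peaks were selected on 2 measured values: the authors' strength of the peak in replicate 1, which had to reach 25, and the absence of any overlap, by even 1 bp, with a peak or hotspot of replicate 2. Strength is a whole-number signal value that the authors deposited for each peak of 150 bp, and a hotspot is an enriched region of variable length called by the authors. On chromosomes 1 to 19 replicate 1 had 205599 peaks, of which 68633 reached this strength, and the 1395 selected peaks were 2.03% of the latter (exact 95% interval 1.93 to 2.14%) and 0.679% of the former. As these values chose the peaks, the count is a description of the libraries and supports no statement by itself. Another 5034 strong peaks (7.33%) overlapped a replicate 2 hotspot but no peak, and 62204 (90.6%) overlapped a replicate 2 peak. The 2.03% is the background for every share of strong peaks given below.

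DNase I cuts DNA where nucleosomes are displaced or loosely held, so that its cut sites mark promoters, enhancers and insulators in use or held ready in a tissue. At this stage the facial prominences are outgrowths of neural crest mesenchyme covered by ectoderm, with blood vessels, nerves and the first muscle cells among them. Neural crest of the face forms in front of the territory of the Hox genes, which instruct position along the trunk and hindbrain. Developmental transcription factor genes often lie in broad CpG-rich domains and carry many regulatory elements.

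The labelled tissue was checked against 9 lists of marker genes. All 56 mesenchyme genes (such as Prrx1, Twist1 and Alx1) had a peak within 1 kb of a transcription start site (TSS) in each library, as did all 30 housekeeping genes. For neurons the numbers were 48 of 52 genes in replicate 1 and 51 in replicate 2, for epithelium 34 and 41 of 45, and for muscle 23 and 32 of 47. For blood they were 24 and 23 of 51, and for endothelium 15 and 21 of 29. Of the 39 Hox genes, 22 in replicate 1 and 21 in replicate 2 had a promoter peak. A promoter peak does not show that a gene is expressed. Housekeeping genes had promoter peaks as often as mesenchyme genes, and neuron genes nearly as often. These counts therefore cannot tell the labelled tissue from another. The depth of either library is unknown, because the files used here held no read totals, and the scale of strength relative to depth is not given, so that a difference in depth between the libraries cannot be told apart from a difference between the embryos.

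Peaks that carry the description are printed here as reference sequence (GRCm38.p6, the build mm10, plus strand, 5′ to 3′, 150 bases each), with CpG dinucleotides in capitals because CpG density was compared below. Of the 1395 peaks, 1217 were eligible by position, those overlapping a UTR being left out among others, so that stronger peaks near Lbx1 and Tbx1 are not printed. The first 3 were the strongest eligible peaks. Of the eligible peaks not already shown, the next was the strongest in a promoter, and the last 5 were the strongest next to a mesenchyme, epithelium, muscle, neuron and blood gene.
Prdm8, chr5:98186276-98186425: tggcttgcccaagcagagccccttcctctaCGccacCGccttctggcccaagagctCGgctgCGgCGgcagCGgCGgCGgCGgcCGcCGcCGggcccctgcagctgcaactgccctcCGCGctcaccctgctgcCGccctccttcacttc
Hoxa9, chr6:52229156-52229305: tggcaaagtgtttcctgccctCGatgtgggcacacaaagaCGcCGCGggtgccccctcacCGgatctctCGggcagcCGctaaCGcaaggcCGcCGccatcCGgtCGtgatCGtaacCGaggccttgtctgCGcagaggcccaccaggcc
Foxc1, chr13:31807456-31807605: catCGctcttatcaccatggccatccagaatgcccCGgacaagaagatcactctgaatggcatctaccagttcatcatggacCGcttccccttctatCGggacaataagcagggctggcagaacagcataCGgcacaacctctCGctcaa
Hoxa5, chr6:52203596-52203745: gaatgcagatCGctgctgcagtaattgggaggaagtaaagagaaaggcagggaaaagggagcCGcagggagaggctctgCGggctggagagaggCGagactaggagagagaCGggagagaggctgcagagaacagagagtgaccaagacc
Tfap2b, chr1:19210256-19210405: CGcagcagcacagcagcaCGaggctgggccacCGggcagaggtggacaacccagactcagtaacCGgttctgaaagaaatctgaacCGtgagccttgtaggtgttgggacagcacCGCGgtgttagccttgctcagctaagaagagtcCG
Cdh1, chr8:106604016-106604165: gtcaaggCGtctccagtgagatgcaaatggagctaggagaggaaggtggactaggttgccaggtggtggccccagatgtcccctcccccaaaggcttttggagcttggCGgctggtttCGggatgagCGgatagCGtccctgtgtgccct
Mef2c, chr13:83733156-83733305: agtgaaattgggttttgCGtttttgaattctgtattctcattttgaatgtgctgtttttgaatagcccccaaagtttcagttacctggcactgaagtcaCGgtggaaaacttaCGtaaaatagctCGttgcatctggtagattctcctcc
Lmx1b, chr2:33630856-33631005: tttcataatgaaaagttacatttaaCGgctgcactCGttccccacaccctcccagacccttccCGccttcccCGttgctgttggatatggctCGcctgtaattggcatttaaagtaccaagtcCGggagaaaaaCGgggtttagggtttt
Gata2, chr6:88190136-88190285: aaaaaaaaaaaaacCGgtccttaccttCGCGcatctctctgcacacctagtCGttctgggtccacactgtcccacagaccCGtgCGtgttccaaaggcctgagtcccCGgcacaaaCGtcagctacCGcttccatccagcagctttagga
The Prdm8 and Hoxa9 peaks held 15 CpG each, the Gata2 peak 9, the Tfap2b peak 8, the Lmx1b peak 7 and the Foxc1 peak 6. The Hoxa5 and Cdh1 peaks held 5 each and the Mef2c peak 4. GC content ran from 74.0% at Prdm8, in a coding exon, down to 40% at Mef2c, between genes.

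The selected peaks were moderate in strength. Their strengths had a median of 29 with quartiles of 26 and 33, and the highest was 59, while replicate 1 peaks reached 134. The share of strong peaks that replicate 2 lacked fell from 5.84% at strengths of 25 to 29 to 2.11% at 35 to 39 and 0.0875% at 50 to 59. No selected peak reached 60, with 0 of 18051 peaks there (exact 95% upper limit 0.0204%). Just inside the threshold, 199 selected peaks had a strength of exactly 25, and just outside it 240 peaks of strength 24 also met no replicate 2 call. On the side of overlap, 60 strong peaks were left out for touching a replicate 2 call by 1 to 10 bp only, and 43 selected peaks lay within 10 bp of one without overlapping it.

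The strongest selected peak, with a strength of 59, lay in a coding exon of Prdm8, which encodes a PR domain protein of the nervous system, 5373 bp from the TSS and 563 bp from the nearest replicate 2 call. The next, at 57, lay 898 bp inside Cdkn2c, an inhibitor of cyclin-dependent kinases, with a replicate 2 call 9 bp away. A peak of the same strength lay in an intron 1861 bp upstream of the nearest Hoxa9 TSS and 3230 bp from any replicate 2 call. The Foxc1 peak, at 56, lay in the coding exon of this forkhead gene of cranial mesenchyme, 898 bp from its TSS. Peaks of 54 near Lbx1 (a homeobox gene of migrating muscle precursors), 51 in Hoxa5 and 50 in Sp8 (a zinc finger gene of limb and facial ectoderm) followed. The last of the 10 strongest had a strength of 49, in Tfap2b (an AP-2 gene of neural crest), Hoxa2 (which patterns the neural crest of the hyoid arch) and Vax2 (a homeobox gene of the ventral eye). Of the 10, the peak near Lbx1 alone was intergenic.

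**Figure D1:**
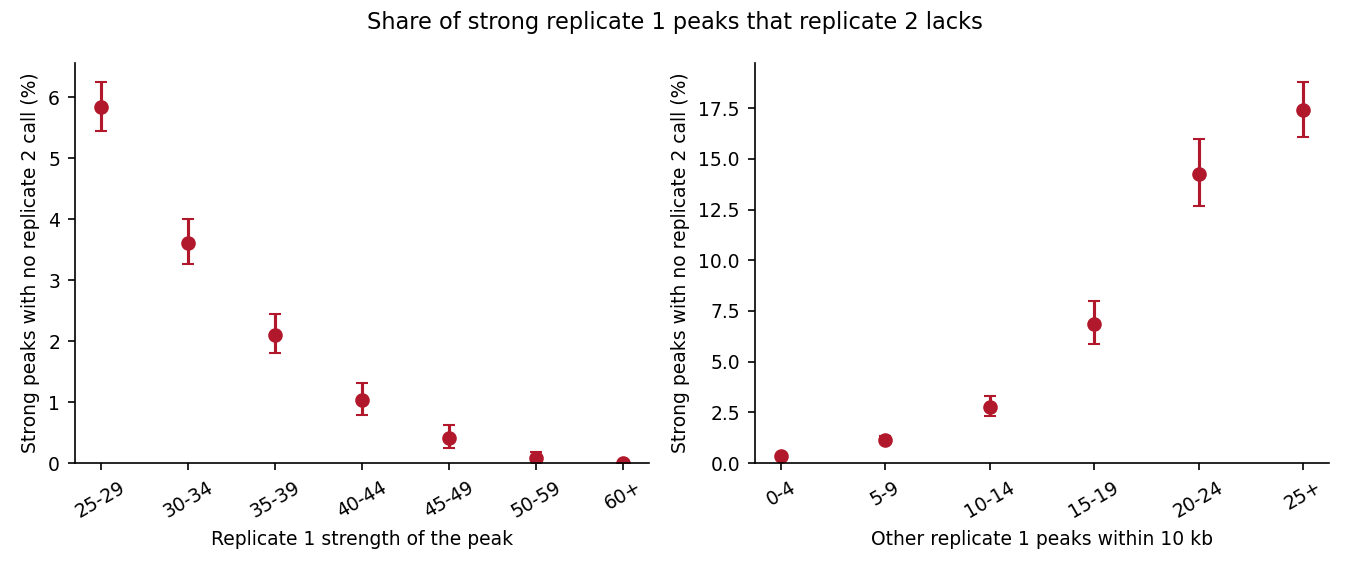
Share of strong replicate 1 peaks with no replicate 2 call (percent, with exact 95% intervals) by strength of the peak (left) and by the number of other replicate 1 peaks within 10 kb (right). The share falls to 0 at strengths of 60 or more and rises from 0.347% among peaks with 0 to 4 neighbours to 17.4% among those with 25 or more.

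The selected peaks stood in crowded stretches of the replicate 1 map. A selected peak had a median of 21 other replicate 1 peaks within 10 kb (quartiles 10 and 29), against 3 (1 and 6) for the strong peaks that overlapped a replicate 2 peak, also when those were weighted to the same strengths. Replicate 2 peaks within the same 10 kb had medians of 7 and 5. At least 10 other replicate 1 peaks lay around 76.4% of the selected peaks and around 14.7% of the overlapping ones. More replicate 1 than replicate 2 peaks lay around 1111 selected peaks (79.6%) and around 17.7% of the overlapping ones. The share of strong peaks that replicate 2 lacked was 0.347% (0.292 to 0.410%) with 0 to 4 neighbours and 17.4% (16.1 to 18.8%) with 25 or more. Among peaks of strength 25 to 34 alone, the same shares were 0.994% and 29.3%, so that the rise with crowding was present within a narrow band of strength. Neighbours include other selected peaks, and the counts of replicate 2 peaks come from the contrast that chose the peaks. The part that peak calling in crowded regions has in these values was not tested.

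Replicate 2 was seldom empty around these peaks. The gap to its nearest call had a median of 381 bp (quartiles 110 and 1196 bp), 327 selected peaks (23.4%) lay within 100 bp of a call and 1378 (98.8%) within 10 kb. In 18 cases no replicate 2 peak lay within 10 kb. The widest gap, 33.3 kb, belonged to an intronic peak that lay wholly in repeat sequence. The nearest TSS to this peak, far away, was that of Myom2, which encodes an M-band protein of muscle. Every selected peak overlapped a replicate 1 hotspot, 1086 hotspots in all. These hotspots had a deposited −log10 q at its ceiling of 100 for 528 peaks (37.8%) and a median over all selected peaks of 4.55. Their length had a median of 591 bp, against 314 bp for overlapping peaks weighted to the same strengths.

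By genomic class, 271 selected peaks (19.4%, exact 95% interval 17.4 to 21.6%) were promoter peaks, with the centre within 1 kb of a protein-coding TSS of GENCODE M21. Another 148 (10.6%, 9.04 to 12.3%) were exonic, 454 (32.5%) intronic and 522 (37.4%) intergenic. Overlapping peaks weighted to the same strengths were 18.6% promoter, 4.29% exonic, 36.1% intronic and 41.0% intergenic. The exonic share was thus 6.32 percentage points higher among the selected peaks, while the promoter share differed by 0.852 points, less than its counting error. Unweighted, 35.8% of overlapping peaks were promoter peaks, 26.9% intronic and 33.4% intergenic, so that the selected peaks were then lower in promoter share and higher in the other 2. Peaks that overlapped a replicate 2 hotspot alone were 52.5% promoter peaks. With TSSs of all GENCODE genes, non-coding ones included, 37.1% of the selected peaks were promoter peaks. Of the exonic peaks, 77 had their centre in coding sequence and 71 in a UTR exon. No test was made between the sets: peaks of 1 library are not replicates, intervals treat them as independent and cover counting error only, and selected peaks lay close together.

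Promoter peaks of the selected set lay mostly off the start site. Their median distance to the TSS was 575 bp, against 441 bp for overlapping promoter peaks at the same strengths, and 15 (5.54%) lay within 100 bp of it, against 17.8%. The rule takes out peaks that touch a replicate 2 call, whereas the comparison peaks all overlap a replicate 2 peak. Where replicate 2 has a call at the start site, the difference is thus built in and supports nothing. Of the 271, 163 lay downstream of the TSS. The strongest after those of Cdkn2c, Foxc1, Hoxa5 and Hoxa2 had strengths of 45 at Hoxd3, Hoxa7 and Dmrt3 (a doublesex-related gene of spinal interneurons). Peaks of 44 at Fezf1 (a zinc finger gene of the forebrain and olfactory system), at 5730596B20Rik, whose TSS lies in the Hoxa cluster, and again at Hoxa7 followed. The Dmrt3 peak had a GC content of 77.3% and lay 254 bp from the TSS.

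The distances concentrated in the first 10 kb beyond the promoter. The median distance from a selected peak to the nearest protein-coding TSS was 3.83 kb (quartiles 1.35 and 10.1 kb). It was 17.2 kb (1.94 and 65.9 kb) for overlapping peaks at the same strengths, 5.71 kb for all overlapping strong peaks and 26.4 kb for all replicate 1 peaks. Between 1 and 10 kb lay 769 selected peaks (55.1%, 52.5 to 57.8%), against 23.4% of the overlapping peaks at the same strengths, and 62.4% of these 769 were downstream of the TSS, against 59.8%. Read the other way, 5.61% of strong peaks 1 to 5 kb from a TSS were missing in replicate 2, 1.08% of those up to 1 kb and 0.628% of those at 50 to 100 kb. To the nearest TSS of any GENCODE gene the median was 1594 bp. Beyond 100 kb lay 70 selected peaks (5.02%). The 3 farthest were a pair of overlapping peaks with strengths of 31 and 28 in an intron that lay 915458 bp from the nearest start site, of Myom2, and a peak of 27 at 565221 bp from 3110018I06Rik. Both peaks of the pair lay wholly in repeat sequence, and their replicate 1 hotspots were 68 and 128 bp long.

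**Figure D2:**
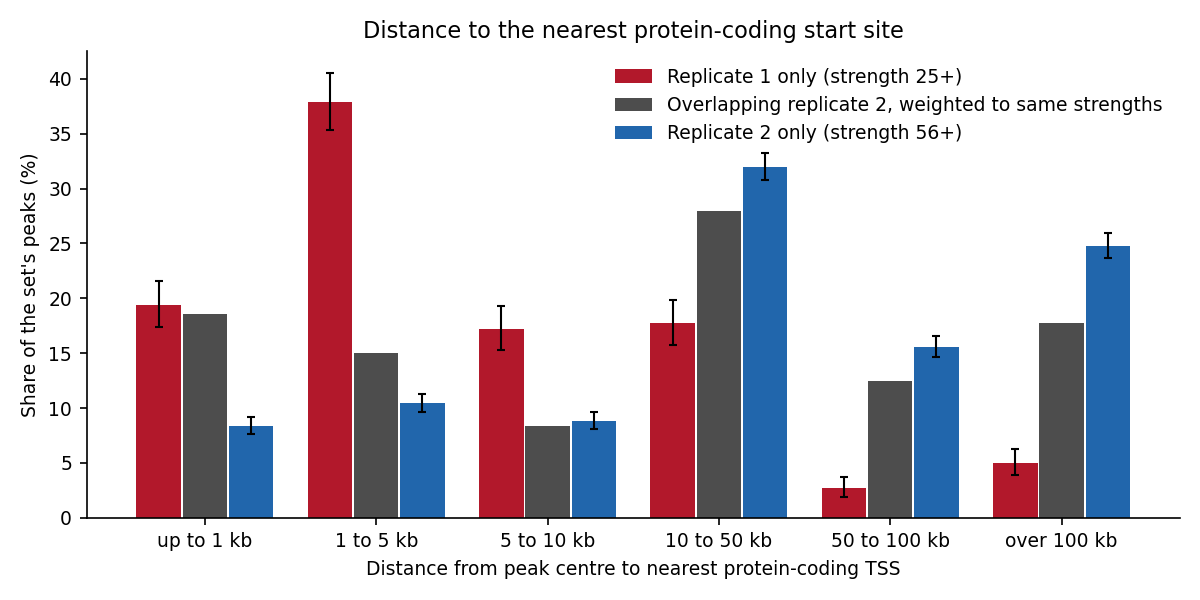
Share of each set's peaks (percent) by distance from the peak centre to the nearest protein-coding TSS, for strong peaks found only in replicate 1 (red), strong replicate 1 peaks overlapping a replicate 2 peak and weighted to the same strengths (grey, no interval) and strong peaks found only in replicate 2 (blue). Bars start at 0 and whiskers are exact 95% intervals; the red bar at 1 to 5 kb stands at 37.9%, against 15.03% and 10.4%.

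The exchange of the libraries gave another picture. Strong peaks found only in replicate 2, with a strength of at least 56 so that 33.5% of its peaks counted as strong (33.4% in replicate 1), numbered 5422 of 71561 (7.58%). They were 8.37% promoter, 3.69% exonic, 46.9% intronic and 41.0% intergenic peaks, and their median distance to a TSS was 32.3 kb. Around them lay a median of 2 replicate 1 peaks and 4 other replicate 2 peaks within 10 kb.

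In base composition the selected peaks matched overlapping peaks of their strength in GC content, with a median of 52.0% in both. Their CpG content was higher: the median ratio of observed to expected CpG in the 150 bp was 0.422, against 0.323. In 500 bp around the centre, 265 selected peaks (18.996%, 16.97 to 21.2%) met a GC content of 50% and a ratio of 0.6, against 11.8% of the overlapping peaks at the same strengths and 5.77% of the peaks found only in replicate 2. Exonic selected peaks had the highest median ratio among the classes, 0.682, and intronic ones the lowest, 0.360. Repeats covered 9.52% of the selected bases and 10.7% of those of the overlapping peaks. In 6 selected peaks (0.430%) at least 50% of the 32-base words occurred again elsewhere in the genome, against 0.706%.

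Short motifs were counted on either strand of the 150 bp, as letters and not as bound sites. The CTCF core (AGNNGGCGC), part of the recognition sequence of the insulator protein, was in 26 selected peaks (1.86%, 1.22 to 2.72%) and in 6.06% of overlapping peaks at the same strengths. The E-box CAGATG, read by basic helix-loop-helix factors such as Twist1, was in 10.1% against 16.1%, and in 24.1% of the peaks found only in replicate 2. The E-box CAGCTG was in 8.46% against 13.8%, and in 22.5% of the latter. AP-1 (TGANTCA) was in 1.94% against 3.95%, RUNX (TGTGGT) in 6.88% against 10.3%, TEAD (GGAATG) in 6.88% against 10.02% and the GC box (GGGCGG) in 8.32% against 11.9%. The homeodomain letters TAATTA were in 3.30% against 3.41%, the word AGATAA of the GATA factors in 4.37% against 4.54%, the CCAAT box, by its own letters, in 17.3% of both and the NFI part-site (TTGGCA) in 7.89% against 7.52%, each within counting error. For SOX (ACAAAG), forkhead (GTAAACA), ETS (CCGGAAG), CRE (TGACGTCA), MEF2 and NRF1 (GCGCATGC) the shares were 10.6, 1.58, 1.22, 0.143, 1.72 and 0.287% against 12.5, 2.01, 1.65, 0.360, 1.84 and 0.477%, of which the SOX share of the overlapping peaks alone lay outside the interval of the selected peaks.

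Many of the selected peaks lay close to another, though most loci held only 1. Chained over gaps of up to 10 kb between centres, they formed 536 loci, of which 341 held a lone peak. Within 10 kb of another selected peak lay 1054 (75.6%), a share that was not counted for other strong peaks. The 28 loci with 10 or more held 424 selected peaks (30.4%). Loci are made of peaks without a replicate 2 call, so that an excess of replicate 1 peaks in them is built in and supports nothing. The largest spanned 17.4 kb at Skor1, with 44 replicate 1 peaks, 31 of them strong, and 3 replicate 2 peaks. A locus of 17.2 kb at Foxa2 held 41 replicate 1 peaks, of which 19 were selected, and no replicate 2 peak. Selected peaks that overlapped the one before numbered 82, so that some share sequence.

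The peaks had 492 nearest genes. A gene had 1 selected peak in 295 cases and 5 or more in 83, and these 83 genes held 804 peaks (57.6%). A promoter peak was present in replicate 1 at 91.3% and in replicate 2 at 90.9% of the 492 genes, against 65.0 and 69.0% of all 21644 protein-coding genes. In these counts per gene, unlike in the check of the lists, a peak within 1 kb counts only for the gene of its nearest TSS. A peak that lies nearer to the TSS of a neighbouring gene is thus not counted. The 492 genes were picked for having a strong replicate 1 peak nearest to them, and selected promoter peaks count among their promoter peaks. The higher replicate 1 share is therefore in part built in, and all protein-coding genes are no matched background for either library. At 25 of the 32 genes with 10 or more selected peaks replicate 2 had a promoter peak, and at 31 replicate 1 had one. These genes are chosen by their number of peaks without a replicate 2 call, so that the counts per gene that follow are a description. The nearest gene need not be the gene that a peak regulates.

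The 10 genes with the most selected peaks are given with the role each is known for and with their strong replicate 1 peaks. Skor1, a corepressor of the SKI family in neurons, had 28 with strengths of 25 to 42, among 41 strong replicate 1 peaks. Tbx5, the T-box gene of heart and forelimb, had 27 of 34 (25 to 43). Zic4, a zinc finger gene of the dorsal neural tube and cerebellum, had 24 of 26 (25 to 47). Gata4, a GATA gene of heart and endoderm, had 21 of 28, all intronic (26 to 47). Foxa2, the forkhead gene of floor plate, notochord and endoderm, had 19 of 28 (25 to 42).

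The others reached similar shares. Dmrt3 had 17 of 27 (27 to 45) and Cdx2, a homeobox gene of the posterior body and intestine, 17 of 19 (25 to 37). Isl1, a LIM homeobox gene of motor and sensory neurons and of cardiac progenitors, had 16 of 23 (25 to 40). Pax7, a paired box gene of muscle progenitors and neural crest, had 16 of 31, 14 of them intronic (26 to 35). Hoxa5 had 15 of 16 (25 to 51). Promoter peaks were counted only for the gene of their nearest TSS. Both libraries had such a peak at Gata4, Dmrt3, Isl1, Pax7 and Hoxa5, and replicate 1 alone at Skor1, Tbx5, Foxa2 and Cdx2. Neither had one at Zic4, where a peak nearer to the TSS of another gene would not be counted.

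**Figure D3:**
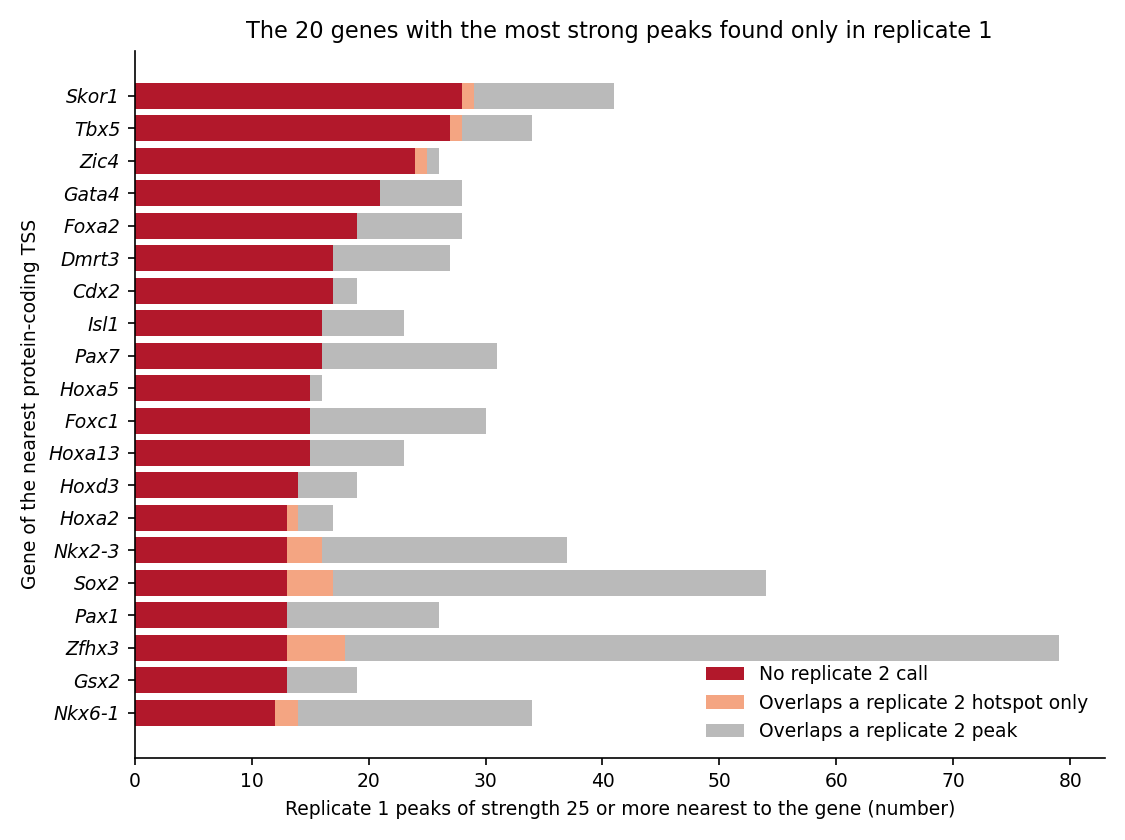
Number of strong replicate 1 peaks nearest to each of the 20 genes with the most selected peaks, split into those with no replicate 2 call (red), those overlapping a replicate 2 hotspot only (orange) and those overlapping a replicate 2 peak (grey). Red fills nearly the whole bar at Zic4 (24 of 26), Cdx2 (17 of 19) and Hoxa5 (15 of 16) and a small part at Zfhx3 (13 of 79).

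The plots around 3 of these loci show how the maps differed. TSSs place the peaks beside each other. Within 25 kb of the Skor1 TSS, 28 selected peaks with strengths of 25 to 42 ran from just upstream of the TSS along the gene, and replicate 2 had 6 peaks with strengths of 69 to 138 on its own scale. Around Gata4 the 21 selected peaks stood between 7 replicate 2 peaks, of which the closest to the start site was also in replicate 1. Around Hoxa5 the 25 selected peaks, among them peaks nearest to other Hoxa genes, had strengths of 25 to 57, and replicate 2 again had 7 peaks. The strongest replicate 1 peaks of each window, at 106, 72 and 78, were matched by replicate 2 peaks, whereas the selected peaks were lower.

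**Figure D4:**
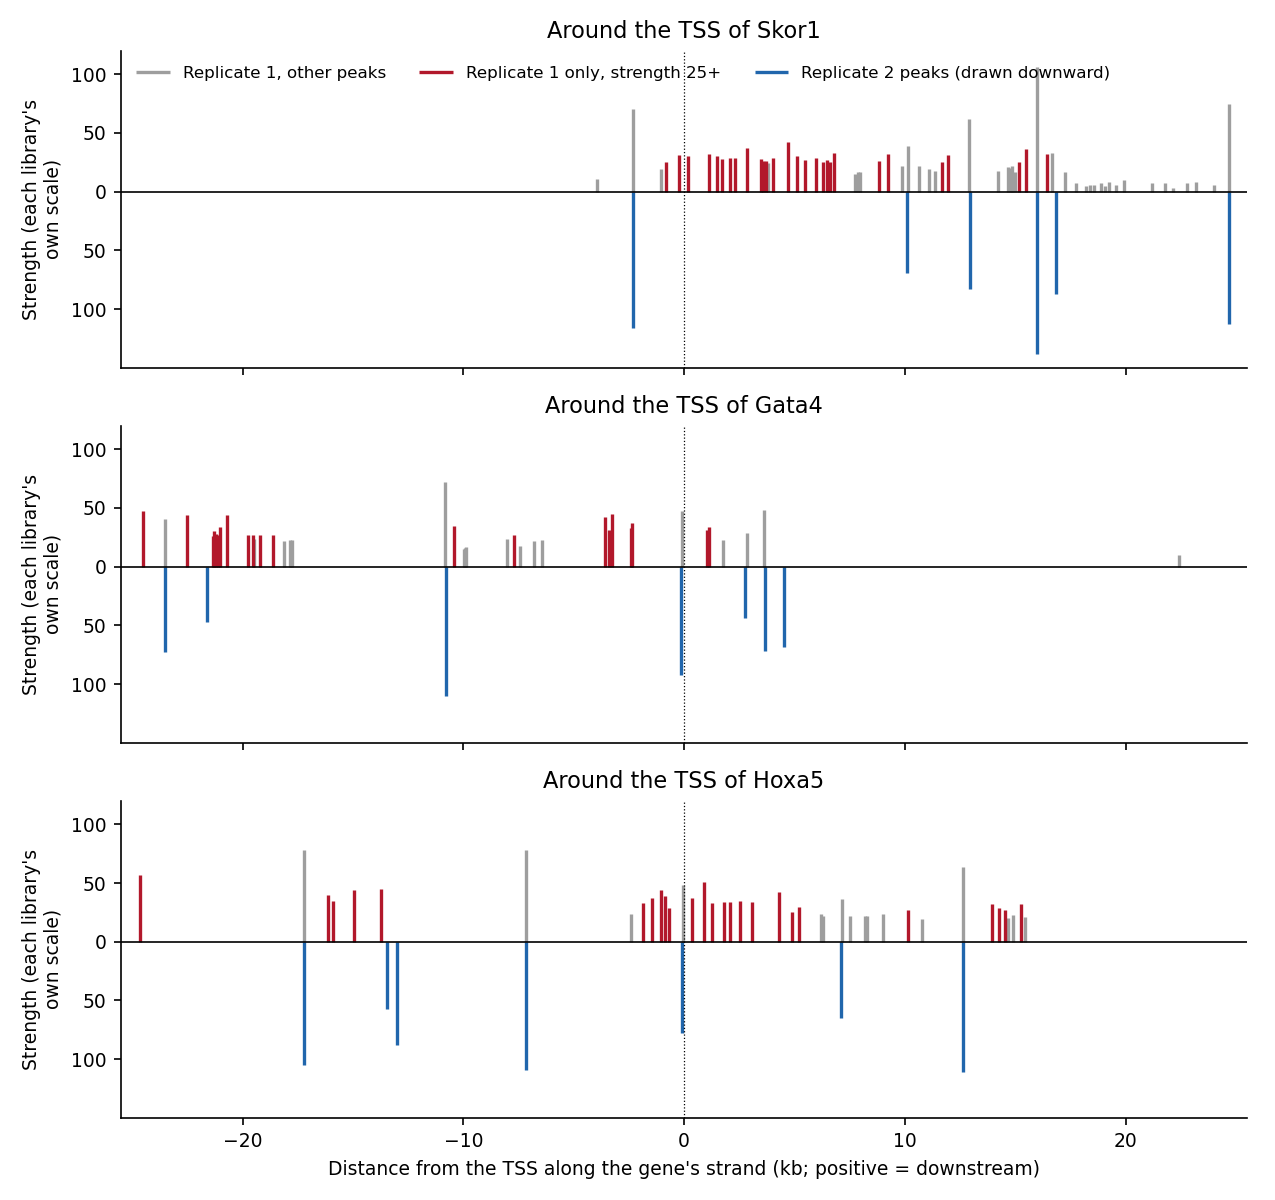
Peaks within 25 kb of the TSSs of Skor1, Gata4 and Hoxa5, by distance along the gene's strand (kb). Height is the authors' strength on each library's own scale, upward for replicate 1 (selected peaks red, other peaks grey) and downward for replicate 2 (blue); 28, 21 and 25 red lines stand over stretches where few blue lines are drawn.

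The Hox genes held the largest share of any list. For the 39 Hox genes, 134 of the 213 strong replicate 1 peaks nearest to them were selected (62.9%, 56.05 to 69.4%, against 2.03% of all strong peaks), at 22 genes. The most were at Hoxa5 (15), Hoxa13 (15, strengths 25 to 45) and Hoxd3 (14, strengths 26 to 45). Within the Hoxa cluster (chromosome 6, 52155590 to 52260880) 52 of 69 strong replicate 1 peaks were selected. In the Hoxb cluster the count was 26 of 47, in Hoxc 18 of 25 and in Hoxd 19 of 28. Replicate 1 had 91, 79, 44 and 50 peaks of any strength in the 4 clusters, and replicate 2 had 33, 42, 17 and 12. The 104 replicate 2 peaks had median strengths of 60 in Hoxa, 55 in Hoxb, 61 in Hoxc and 91 in Hoxd, on its own scale. Strong replicate 1 peaks that overlapped a replicate 2 peak numbered 50 over the clusters, so that both libraries had called part of each cluster.

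Among the tissue lists, 256 selected peaks (18.4%) were nearest to 1 of 248 genes of the mesenchyme, epithelium, muscle, neuron and blood lists, at 50 genes. The mesenchyme list had the most, 127 at 23 of its 56 genes. They were 9.10% of the selected peaks (7.65 to 10.7%), against 2.16% of overlapping peaks at the same strengths, and 9.49% of the 1338 strong peaks nearest to the list. Foxc1 had 15 (25 to 56). Tfap2a, the AP-2 gene of neural crest and ectoderm, Shox2, a homeobox gene of palate and limb, and Nr2f1, a nuclear receptor, had 11 each, of strengths up to 46, 37 and 47. Tfap2b had 9 (26 to 49) and Pax3, a paired box gene of neural crest and muscle precursors, 8 (25 to 33). Hand2, which patterns the distal mandibular arch, and Alx1, a homeobox gene of frontonasal mesenchyme, had 7 each, of strengths up to 41 and 39.

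The neuron and muscle lists followed. For neurons 79 peaks at 15 of 52 genes were selected, 11.4% of the 695 strong peaks nearest to the list (9.10 to 14.0%). After Isl1, genes with several were Sox2, a gene of neural progenitors and placodes (13, all intergenic), Onecut1 (11), Tlx3, a homeobox gene of sensory and excitatory neurons (9), Lmx1b, of dorsal limb and monoaminergic neurons (6, strengths 28 to 43), Neurog2, which drives neurogenesis (6), and Gad2 (3), which encodes a GABA-synthesising enzyme. For muscle 46 peaks at 7 of 47 genes were selected, 12.8% of 360 (9.51 to 16.7%). They were at Pax7 (16), Mef2c (9, strengths 29 to 48, all intergenic), Pax3 (8), Tbx1 (5), Lbx1 (3, up to 54), Tcf21 (3) and Eya1 (2). The Mef2c peaks lay 153.2 to 164.2 kb and the Eya1 peaks 155.1 to 195.7 kb from the TSS. With only the strongest peak of each 10 kb locus kept, the muscle list was nearest to 2.05% rather than 3.30% of the selected peaks and the neuron list to 3.36% rather than 5.66%. None was nearest to Myod1, Myf5 or a gene for a contractile protein of the list, but the strong peaks nearest to these genes were not counted apart. The 7 genes with selected peaks encode regulators, several of which also act in mesenchyme. Of the 77 selected peaks more than 5000 bp from any replicate 2 call, none was nearest to a neuron or muscle gene and 3.90% were nearest to a mesenchyme gene.

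Epithelium and blood had few. For epithelium 10 peaks were selected at 4 of 45 genes, 3.97% of 252 strong peaks (1.92 to 7.18%). Among these genes were Tbx1, a T-box gene of the pharyngeal arches (5, also in the muscle list), Foxe1, a forkhead gene of palate and thyroid (1), and Cdh1, which encodes E-cadherin (1, strength 33). None was at Trp63, Epcam or a keratin gene, but the strong peaks nearest to these genes were not counted apart. For blood 11 were selected at 4 of 51 genes, 4.66% of 236 (2.35 to 8.19%): Runx1 (4, also in the mesenchyme list), Gata2 (3), Tal1 (2), which are regulators of blood stem cells, and Fcgr3 (2), an Fc receptor of myeloid cells. None was at a globin gene, whose strong peaks were not counted apart either. Genes of chromosome X, such as Gata1, are among the 51 but could have no selected peak, as the rule leaves that chromosome out. The epithelium interval reached the background of 2.03% and the blood interval began just above it, at 2.35%. That limit rests on few peaks, and the 2 at Fcgr3 overlap each other within 0.19 kb. With copied sequence left out, blood genes were nearest to 0.648% rather than 0.789% of the selected peaks. The interval against the background was not computed without such peaks.

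For the remaining lists the counts were small. Endothelium had 5 selected peaks at 5 genes (2.96% of 169), among them Sox18, Erg and Fli1. Glia and pigment cells had 4 (4.12% of 97), 3 at Egr2, a zinc finger gene of hindbrain and Schwann cells, and 1 at Sox10. The housekeeping list had 3, all at Actb (2.14% of 140). The lists of endothelium, of glia and pigment and of housekeeping had intervals that included 2.03%. Over all 9 lists 402 selected peaks (28.8%) were nearest to a list gene and 993 (71.2%) were not.

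**Figure D5:**
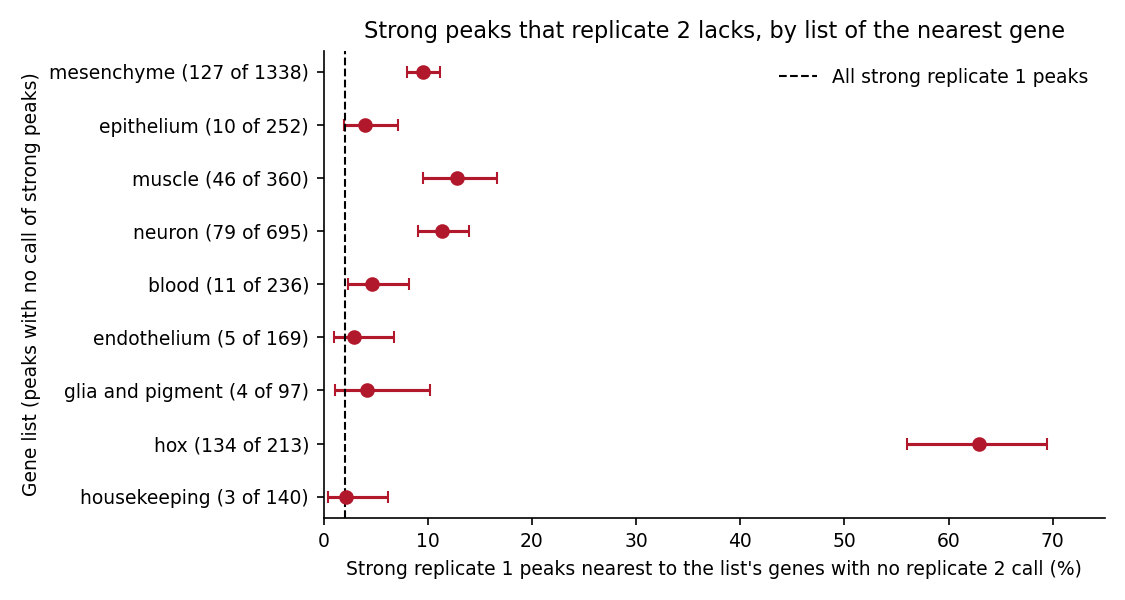
Share of the strong replicate 1 peaks nearest to each list's genes that had no replicate 2 call (percent, points with exact 95% intervals), with the share among all strong peaks, 2.03%, as a dashed line. Hox genes stand at 62.9%, muscle, neuron and mesenchyme between 9.49 and 12.8%, and the interval of housekeeping genes includes the dashed line.

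Grouped by the words of the RefSeq description of the nearest gene, a grouping added after the data were seen, 706 selected peaks (50.6%) were next to 130 genes of 11 families of transcription factors. The same families were nearest to 7.27% of the overlapping peaks at the same strengths. Homeobox genes, Hox genes included, were nearest to 415 (29.7%, against 3.75%) and 16.1% of the strong replicate 1 peaks nearest to them were selected, 11.9% without the Hox genes. This share was 27.8% of 90 strong peaks for doublesex-related genes, 27.2% of 92 for the Zic family, 24.3% of 107 for GATA genes and 19.7% of 259 for paired box genes. PR domain genes stood at 15.98%, T-box genes at 14.1%, forkhead genes at 9.74%, nuclear receptors at 7.01% and Sox genes at 6.07%, while genes described as basic helix-loop-helix had 1 of 100. Apart from that last group, each share was above the 2.03% of all strong peaks. A gene without these words in its description, such as Skor1, is in none of the families.

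The selected peaks were spread over all 19 autosomes, from 0.867% of the strong peaks on chromosome 16 to 3.55% on chromosome 19.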

How the data were processed

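DNase-seq peaks and hotspots of the 2 libraries, called per library on mm10, were analysed as deposited. The authors deposited a signal value for each peak (strength) and a −log10 q for each hotspot. No aligner, peak caller or version of either is given in the sources used here, and read totals were not used. Repeated rows for 61 peaks on chromosomes 1 to 19 of replicate 1, none of them selected, were kept as deposited. Overlaps, distances, base composition and motifs were computed in Python 3.11.15 from GRCm38.p6 sequence and the GENCODE M21 basic set (21644 protein-coding genes), and the functions were tested on simulated intervals. Overlapping peaks were weighted so that their strengths had the distribution of the selected peaks. Intervals are exact (Clopper-Pearson, 95%), and no tests were run. Genes were named by rank: the 10 strongest peaks and promoter peaks, the 10 genes with the most peaks, up to 10 genes per tissue list and 3 per other list. Other genes named for having no selected peak, and the 3 loci and 20 genes plotted, were chosen after values were seen. A few genes that this ranking names are not reported here. The selection rule, the gene lists and the motifs were chosen with earlier results of these data known. RefSeq descriptions matched 485 of the 492 nearest genes. Alternatives were other strengths, overlaps, promoter windows, TSS sets and weightings.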

Additional observations from a re-analysis of the deposited data

Results flagged for a closer look

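Chromosome X, outside the autosomes described above, also held strong replicate 1 peaks with no replicate 2 call: 9 of 1352 (0.666%, exact 95% interval 0.305 to 1.26%), with strengths up to 39. They are listed because the count was above the limit that a count of 0 allows, which is 3 peaks.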

How the results depend on the processing

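Over 21 settings, 107 of 186 alternative values stayed within the interval of the value reported (within 1.5 times for the count), 77 moved past it and 2 reversed. Adding chromosome X, leaving out copied sequence, and (both added after seeing the data) leaving out peaks nearest to Hox genes or to the 10 genes with the most moved none of their 12 values each. A strength of 20 gave 3410 peaks, 7.92% exonic, a median of 5196 bp to a TSS and 50.7% GC, with 6.60% nearest to mesenchyme, 2.32% to muscle and 3.99% to neuron genes. A strength of 30 gave 618, 21.8% promoter, 34.47% intergenic, 3146 bp, 54% GC and 11.7% mesenchyme. A strength of 40 gave 94, 15.96% exonic, 37.2% intronic, 27.7% intergenic, 2862 bp, 56% GC, 12.8% mesenchyme, 0% epithelium, 2.13% muscle and 0% blood. An overlap of 75 bp needed for removal gave 23.97% promoter. Removal by replicate 2 peaks alone gave 6429 peaks, 45.3% promoter, 6.10% exonic, 21.9% intronic, 26.7% intergenic, 1298 bp, 56% GC, 4.50% mesenchyme, 1.40% muscle and 2.47% neuron. Removal by a call within 500 bp gave 626, 13.7% promoter, 12.9% exonic, 35.3% intronic, 10.9% mesenchyme and 0.319% epithelium. Within 5000 bp it gave 77, 9.09% promoter, 13.0% exonic, 24.7% intronic, 53.2% intergenic, 8157 bp, 50% GC, 3.90% mesenchyme, 0% epithelium, 0% muscle, 0% neuron and 2.60% blood. The strongest per 10 kb locus gave 536, 23.9% promoter, 7.84% exonic, 53.3% GC, 6.16% mesenchyme, 2.05% muscle and 3.36% neuron. A promoter window of 500 bp gave 8.67% promoter, 12.5% exonic and 39.1% intronic, and one of 2500 bp 39.1% promoter, 6.74% exonic, 20.9% intronic and 33.3% intergenic. TSSs of all genes gave 37.1% promoter, 8.96% exonic, 25.02% intronic, 28.9% intergenic and 1594 bp, and 1 TSS per gene 5337 bp. List genes within 100 kb, nearest or not, gave 1.43% blood. The comprehensive annotation, added after seeing the data, gave 22.2% promoter and 3383 bp. Without weighting, selected minus overlapping peaks was -16.4 points for promoters, 5.61 for introns and 3.995 for intergenic sequence, the last 2 reversed, and -4 points for GC. The causes were not tested. Leaving out a replicate could give no value, since the peaks are defined by replicate 1 against replicate 2. No paired analysis was possible because the series has 1 group. The unknown depth limits every statement on absence from replicate 2, which means that no call was made there.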
